A study of Mus musculus with 16 samples.

Results

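Fatty acids move through adipocytes bound to proteins. Membrane proteins such as CD36 and the fatty acid transport proteins of the Slc27 family take fatty acids up at the cell surface, and small cytoplasmic fatty acid binding proteins (FABPs) carry them between membranes, lipid droplets, enzymes and the nucleus. Fabp4 is the classical adipocyte member and one of the most abundant messages of a fat cell, and in mouse several FABP genes lie side by side on chromosome 3. The genes described here are 10 of the 20295 in the count table: the binding proteins Fabp3, Fabp4, Fabp5, Pmp2, Fabp9 and Fabp12 and the uptake proteins Cd36, Slc27a1, Slc27a2 and Slc27a4. They were chosen by function and by position in the chromosome 3 cluster, with the group differences of these samples already in view, so the values below describe these samples and the tests are not independent evidence.

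The cells were BAT-LgT cells, mouse brown preadipocytes made immortal by a viral large T antigen, which were differentiated in culture to day 7. They were kept for 1 h with vehicle, with 5 µM triacsin C, which blocks the acyl-CoA synthetases that activate fatty acids, or with 50 µM etomoxir, which blocks the entry of fatty acids into mitochondria at CPT1. The next 3 h were with or without 10 µM SR-3420, a ligand of ABHD5 that switches on lipolysis by the lipase ATGL (10 µM is the dose in the sample labels; the study's own figure text gives another). RNA-seq gave 16 samples in 6 groups: vehicle (n = 2), SR-3420 (n = 2), triacsin C (n = 3), triacsin C + SR-3420 (n = 3), etomoxir (n = 3) and etomoxir + SR-3420 (n = 3). Vehicle replicate 1 and SR-3420 replicate 2 were not analysed here. All samples come from 1 cell line, and total counts lay between 9452861 and 25670624 with a median of 13602886.

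Markers of fat cells were abundant in these libraries. The 8 adipocyte markers examined summed to a mean of 23026 CPM (counts scaled by library size) in vehicle, with Cfd the most abundant at 12481 CPM. Brown fat markers were far lower: the 8 examined summed to 157 CPM in vehicle, Ucp1 had a mean normalized count of 16.8 ± 14.7 (SD, n = 2), and Dio2 was at 0 in both vehicle samples. Markers of other cell types were mostly low: all 6 male germ cell markers had a mean count under 10, as did 3 of 5 Schwann cell markers, 4 of 5 endothelial markers and 4 of 6 macrophage markers in the table. The same was true of 3 of 5 hepatocyte and 2 of 5 skeletal muscle markers, and these lists summed to 10.1 CPM and 8.88 CPM in vehicle. Preadipocyte markers stood higher: the 5 examined summed to 133 CPM in vehicle, and 0 of them had a mean count under 10.

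Levels between genes were compared per length, as CPM per kb of the length over which reads were counted. Fabp4 led in vehicle with a mean of 10720 CPM per kb (SD 937, n = 2), followed by Fabp5 with 673, Slc27a1 with 153, Cd36 with 81.6 and Slc27a4 with 29.2. The remaining members were all below 1 CPM per kb in vehicle, with Fabp3 at 0.574, Fabp9 at 0.313, Pmp2 at 0.249, Fabp12 at 0.142 and Slc27a2 at 0.0401. The ranges of Fabp9 and Pmp2 overlapped over the vehicle samples, and so did those of Pmp2 and Fabp12, so their order there is within the spread. Per kb of the gene's whole span, Cd36 and Slc27a4 changed places, and Fabp3, Fabp9 and Pmp2 stood in the reverse order. Fabp4 alone took 0.628% and 0.784% of all counts in the vehicle samples. In each of the 16 samples it ranked 1 or 2 of all genes by counts per base, with 60.7 to 190 counts per base.

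**Figure D1:**
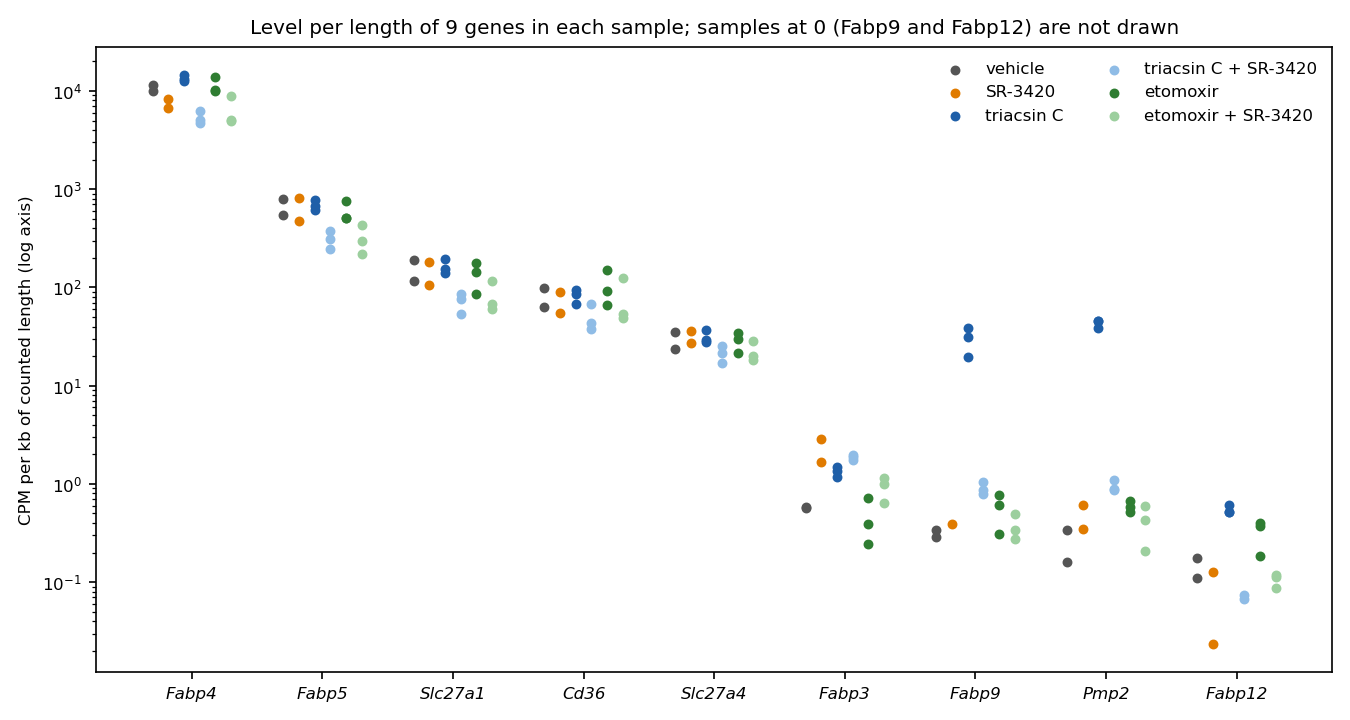
Level per length (CPM per kb of counted length, log axis) of 9 of the 10 genes, with a point for each sample and a colour for each of the 6 groups. Fabp4 lies highest in every group, and Pmp2 and Fabp9 leave the low range in the 3 triacsin C samples alone.

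The RefSeq promoter table (GRCm38.p6, 250 bases before to 50 after each start) held entries for 5 of the 10 genes: Fabp3, Cd36, Slc27a1, Slc27a2 and Slc27a4. Fabp4, Fabp5, Pmp2, Fabp9 and Fabp12 had no entry. The 4 promoters printed here belong to Fabp3, the member called higher with SR-3420 alone, and to the uptake genes with counts high enough to compare. Of these, Slc27a1 and Slc27a4 varied together. Capitals mark matches on either strand to the nuclear receptor half-site AGGTCA, to 2 such half-sites in the same direction 1 base apart with at most 2 mismatches, or to the CRE half-site TGACG; the C/EBP-type motif TTGCGCAA was also searched and is in none of them.
Fabp3, chr4:130308488-130308787, plus strand: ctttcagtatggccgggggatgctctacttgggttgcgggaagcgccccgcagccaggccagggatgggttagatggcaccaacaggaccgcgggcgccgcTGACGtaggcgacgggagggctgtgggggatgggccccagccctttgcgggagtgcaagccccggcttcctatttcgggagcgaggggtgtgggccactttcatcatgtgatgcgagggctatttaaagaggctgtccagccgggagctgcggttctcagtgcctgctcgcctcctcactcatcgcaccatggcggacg
Cd36, chr5:17835847-17836146, minus strand: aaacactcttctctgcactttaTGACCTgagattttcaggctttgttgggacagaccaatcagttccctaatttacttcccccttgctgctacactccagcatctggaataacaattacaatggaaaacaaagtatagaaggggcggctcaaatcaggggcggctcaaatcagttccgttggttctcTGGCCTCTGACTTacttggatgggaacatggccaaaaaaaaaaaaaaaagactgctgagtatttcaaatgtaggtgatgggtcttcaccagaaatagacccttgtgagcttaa
Slc27a1, first of 3 entries, chr8:71568621-71568920, plus strand: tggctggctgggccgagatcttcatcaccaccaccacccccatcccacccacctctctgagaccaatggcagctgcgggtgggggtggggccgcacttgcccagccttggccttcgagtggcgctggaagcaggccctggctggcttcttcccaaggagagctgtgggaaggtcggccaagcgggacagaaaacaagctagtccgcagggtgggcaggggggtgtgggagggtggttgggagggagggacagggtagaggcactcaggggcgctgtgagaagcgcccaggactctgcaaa
Slc27a4, chr2:29802384-29802683, plus strand: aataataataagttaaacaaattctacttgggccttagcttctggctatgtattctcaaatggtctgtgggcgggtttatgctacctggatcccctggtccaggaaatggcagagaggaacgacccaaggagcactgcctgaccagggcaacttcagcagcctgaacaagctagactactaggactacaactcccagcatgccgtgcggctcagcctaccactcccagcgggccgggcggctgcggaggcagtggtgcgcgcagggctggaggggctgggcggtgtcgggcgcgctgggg
Fabp3 held 1 CRE half-site, a motif in 20.8% of the 32851 promoters of the table. Cd36 held 1 AGGTCA half-site (16.3% of promoters) and 1 spaced repeat (3.86%), and the Slc27a1 and Slc27a4 entries printed held none of the 4 motifs. TTGCGCAA was in 0.183% of promoters. A match is a description of letters, and the Cd36 entry belongs to another start of the gene than the count table lists.

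Pmp2 and Fabp9 gave the largest differences among the 10 genes. Pmp2 encodes the FABP of peripheral myelin, and Fabp9 is the testis member of the family. In vehicle, Pmp2 had normalized counts of 3.03 and 6.43. In the triacsin C samples it had 848, 714 and 848. Fabp9 went from 3.03 and 2.57 in vehicle to 343, 170 and 279 in triacsin C. Every triacsin C sample thus lay far above both vehicle samples for both genes, with no overlap between the groups.

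With SR-3420 added to triacsin C, both genes had low counts. Pmp2 had 17.0, 16.4 and 20.5 normalized counts in triacsin C + SR-3420, and Fabp9 had 7.18, 9.39 and 7.68. Without triacsin C, Pmp2 had 6.48 and 11.3 with SR-3420, 10.9, 9.80 and 12.9 with etomoxir, and 3.94, 10.9 and 8.18 with both. Fabp9 stayed between 0 and 7.05 over these 8 samples. The 3 triacsin C samples therefore stood alone for both genes. The lowest values in triacsin C + SR-3420 (16.4 for Pmp2 and 7.18 for Fabp9) exceeded the highest of vehicle, as did all 3 etomoxir samples for Pmp2. From the summed counts, the ratio of triacsin C + SR-3420 to vehicle was 3.94 for Pmp2 (95% counting interval 1.85 to 9.63) and 2.83 for Fabp9 (1.05 to 9.56), intervals that cover counting error only, and no model tested this comparison.

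For triacsin C against vehicle, the log2FC of Pmp2 was 7.44 ± 0.41 (SE; edgeR adjusted p = 2.43e-07) and that of Fabp9 was 6.50 ± 0.59 (adjusted p = 1.27e-05). They ranked 2 and 5 of the 12786 genes tested by log2FC in this comparison. Fabp9 passed the count filter only through the triacsin C samples, so it had to differ, and its p and rank support nothing. Because the vehicle counts are so low (8 in all for Pmp2 and 5 for Fabp9), the size of the ratio is loose: 178 with a 95% counting interval from 90.4 to 414 for Pmp2, and 90.5 (38.6 to 280) for Fabp9. These intervals cover counting error only. Relative to Fabp4 per length, Pmp2 stayed a minor message, at 0.304% to 0.343% of the Fabp4 level in triacsin C against 0.0016% to 0.00297% in vehicle.

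For triacsin C + SR-3420 against triacsin C, the log2FC was -5.50 ± 0.29 for Pmp2 (edgeR adjusted p = 1.98e-07) and -5.04 ± 0.43 for Fabp9 (adjusted p = 4.59e-06). The response of Pmp2 to SR-3420 differed between cells with triacsin C and without inhibitor by a log2FC of -6.45 ± 0.57 (adjusted p = 0.000406). For Fabp9 the same difference was -4.35 ± 1.23 with an adjusted p of 0.0853, above the threshold of 0.05. Against the response in etomoxir, the difference was -4.89 ± 0.46 for Pmp2 (adjusted p = 0.000297) and -4.54 ± 0.77 for Fabp9 (adjusted p = 0.00858), and the latter p was 0.0659 without etomoxir + SR-3420 replicate 1. The difference for Fabp9 between triacsin C and no inhibitor was called by DESeq2 and, by edgeR, without SR-3420 replicate 1. Fabp9 reached the count filter (10 counts at the median depth) in the 3 triacsin C samples alone and was tested only through them, so it had to differ; Pmp2 reached it in 11 samples.

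**Figure D2:**
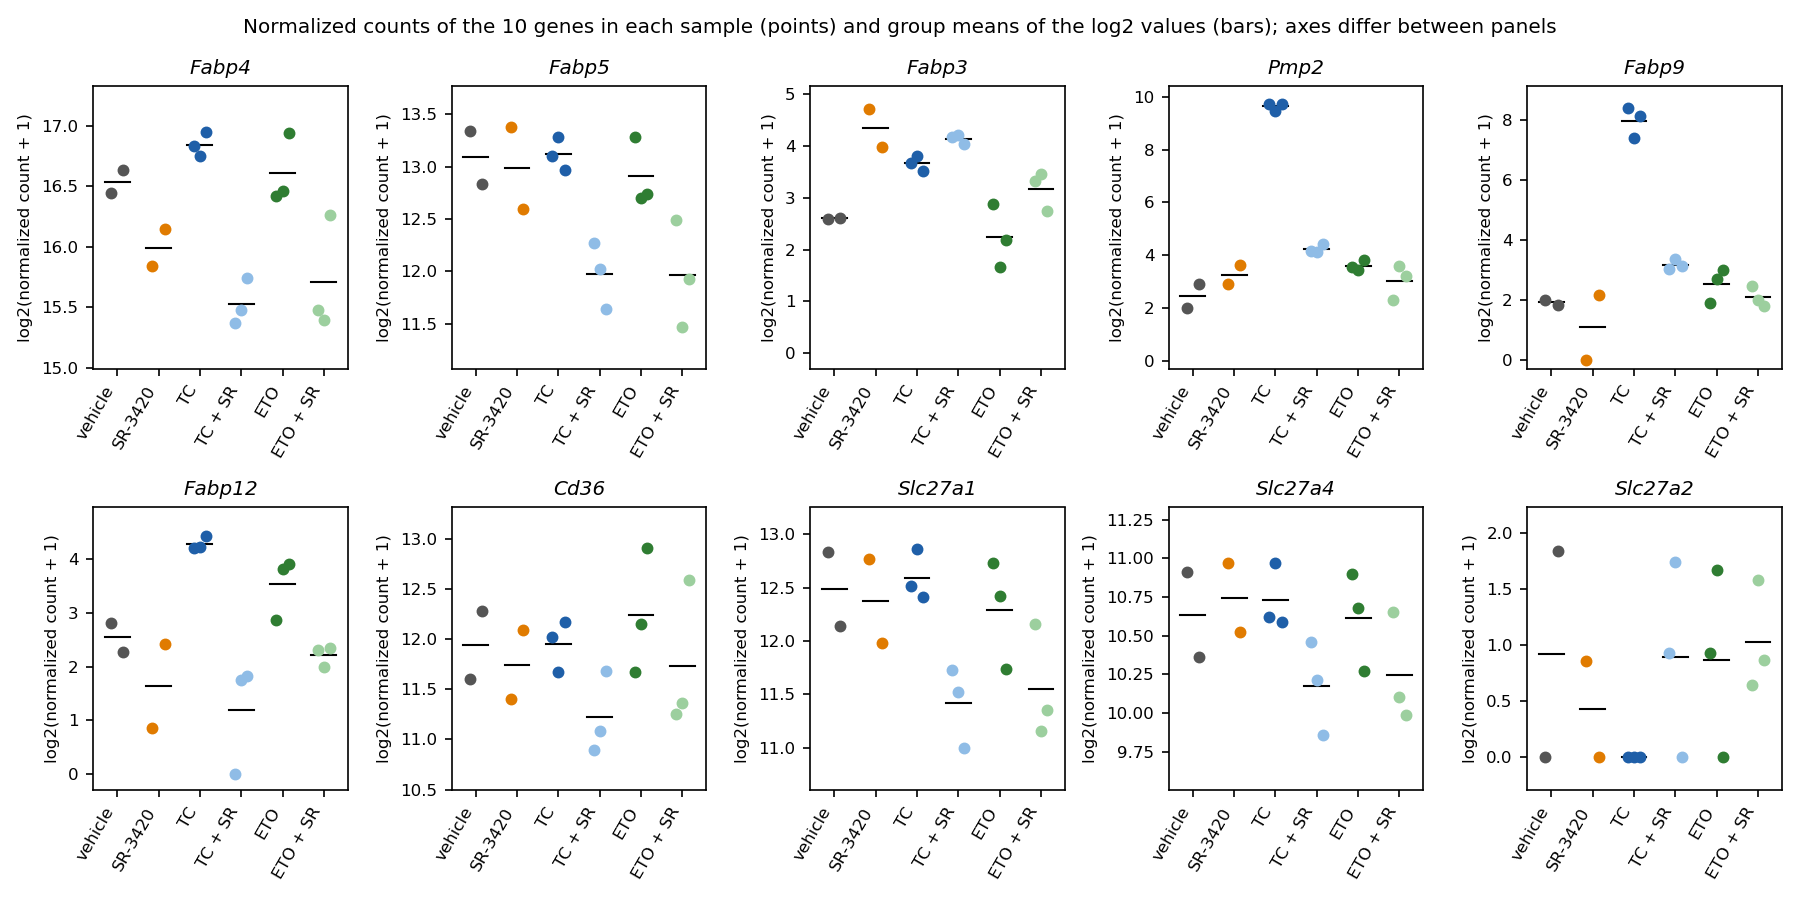
Normalized counts, as log2(count + 1), of the 10 genes in each of the 16 samples (points) with the mean of each group (bars); TC is triacsin C, ETO etomoxir and SR SR-3420, and the axes differ between panels. Pmp2 and Fabp9 are high in the 3 triacsin C samples, and the means of Fabp4, Fabp5 and Slc27a1 are lowest in the 2 groups with an inhibitor and SR-3420.

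The cluster was described by position, on mm9 as in the count table. Along the minus strand, in the direction of transcription, Fabp12 (chr3:10244209-10301183) is followed by Fabp4 (chr3:10204343-10208576), Fabp9 (chr3:10193624-10197283) and Pmp2 (chr3:10179851-10183885), and Fabp5 (chr3:10012585-10016610) lies apart on the plus strand. The gap from the end of Fabp4 to the start of Fabp9 is 7.06 kb, and that from the end of Fabp9 to the start of Pmp2 is 9.74 kb. No other gene of the table overlaps any of the 10 members on either strand. The Fabp4, Pmp2 and Fabp9 transcripts share no stretch of 30 bases with each other or with the mm9 genome away from their own surroundings. Sequence close to each gene, the gaps named above included, was not checked for such stretches. Of the 13 genes of the table that start within 1 Mb of the start of Fabp4, Fabp4 included, 12 were tested. For triacsin C against vehicle, where 11.7% of all genes were called, Pmp2 and Fabp9 (tested only through triacsin C) were higher, and Pag1 (log2FC -1.74 ± 0.20, edgeR adjusted p = 9e-05) and Zfp704 (-1.38 ± 0.12, adjusted p = 9.1e-06) were lower. Fabp4 itself, next to Fabp9, had a log2FC of 0.33 ± 0.25 (adjusted p = 0.493) and Impa1, beyond Fabp12, -0.14 ± 0.21 (adjusted p = 0.754).

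Genes were also counted by the level of the gene upstream on the same strand. Of 33 tested genes under 1 CPM per kb in vehicle that start within 10 kb downstream of a gene at 100 CPM per kb or more, Fabp9 behind Fabp4 among them, 17 (51.5%) were called higher with triacsin C. Of 411 as low behind a gene under 100 CPM per kb, Pmp2 behind Fabp9 among them, 75 (18.2%) were, and of 1372 as low with no gene that close upstream, 5.39% were. Over all 1816 genes this low 9.14% were, and over all 12786 genes 4.77%. The classes and their limits were set after the values of Fabp9 were seen, and genes this low can pass the filter through triacsin C in every class, so these shares are a description with no test, and nothing is concluded from them. The part of position in the counts of Pmp2 and Fabp9 was not tested.

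**Figure D3:**
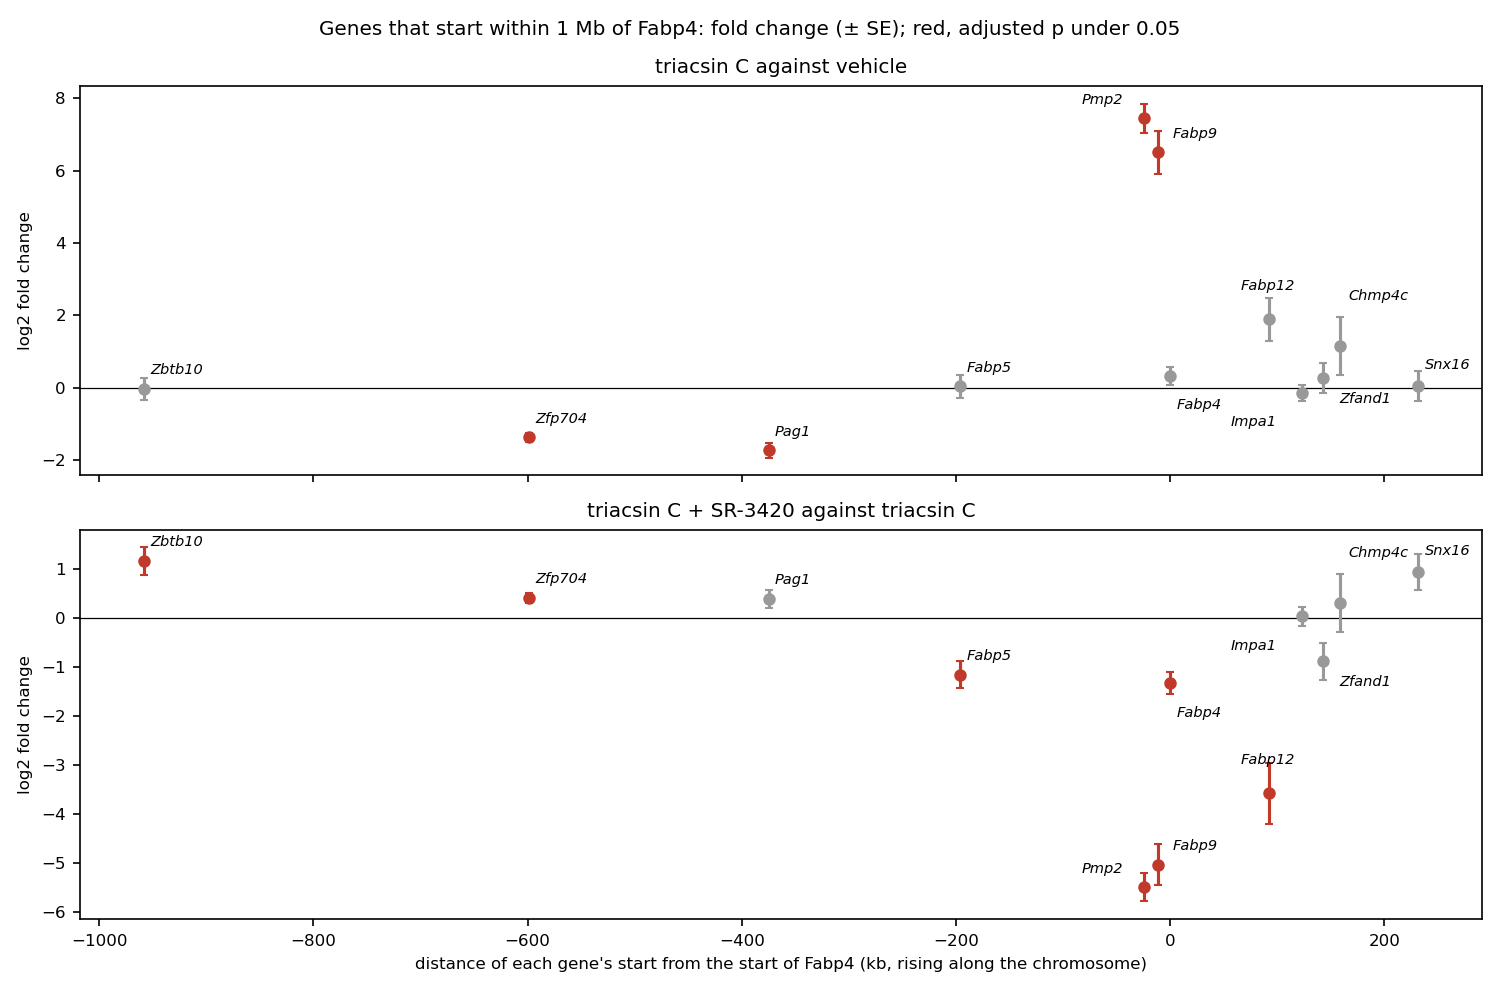
Log2 fold change (± SE) of the 12 tested genes that start within 1 Mb of Fabp4, against the distance of each start from that of Fabp4 in kb, for triacsin C against vehicle (top) and triacsin C + SR-3420 against triacsin C (bottom); red points have an adjusted p under 0.05. Pmp2 and Fabp9 stand at 7.44 and 6.50 in the upper panel while Fabp4, directly upstream of Fabp9, is at 0.33.

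Fabp12, another testis-expressed family member, was also highest in triacsin C, at far lower counts. It had normalized counts of 6.05 and 3.86 in vehicle and of 17.6, 17.7 and 20.8 in triacsin C. With SR-3420 as well, these were 0, 2.35 and 2.56. The 3 groups did not overlap, and unlike Pmp2 and Fabp9, Fabp12 lay below vehicle in triacsin C + SR-3420. From the summed counts, that ratio to vehicle was 0.286 (95% counting interval 0.0643 to 1.02, counting error only). The interval includes no difference. The log2FC for triacsin C against vehicle was 1.89 ± 0.59, with an edgeR adjusted p of 0.0531 that misses the threshold. That p is from the model without a term for the replicate number, and it passed the threshold with such a term. For triacsin C + SR-3420 against triacsin C it was -3.58 ± 0.63 (adjusted p = 0.000665), and from -4.06 to -2.89 over fits that leave out a sample. In etomoxir the counts were 6.34, 13.1 and 14.1, and in etomoxir + SR-3420 they were 3.94, 2.99 and 4.09, a log2FC of -1.52 ± 0.53 (adjusted p = 0.0484). That call was lost in 12 of the 16 fits that leave out a sample, with an adjusted p of up to 0.141, and was kept only without SR-3420 replicate 1 or 3, triacsin C + SR-3420 replicate 1 or etomoxir replicate 1. It was also lost without the filter on low counts (adjusted p = 0.0829). Fabp12 reached the count filter in 5 samples, the 3 of triacsin C and etomoxir replicates 2 and 3, which lie in the reference groups of both SR-3420 comparisons, so it was tested only through groups where it was high. At such raw counts, from 0 to 20, small differences are not detectable.

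Fabp4, the main FABP of fat cells, fell with SR-3420 when an inhibitor was present. Its normalized counts were 88952 and 101702 in vehicle and 58608 and 72379 with SR-3420. In triacsin C they were 116338, 110287 and 126457, and in triacsin C + SR-3420 they were 42408, 45693 and 54681. Each SR-3420 group lay below its own reference group with no overlap here. With etomoxir the counts were 87564, 90041 and 125536, against 45728, 43072 and 78449 in etomoxir + SR-3420. Those groups did not overlap either, and replicate 3 was the highest in both.

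The log2FC of Fabp4 with SR-3420 was -1.33 ± 0.23 in triacsin C (edgeR adjusted p = 0.000575) and -0.85 ± 0.22 in etomoxir (adjusted p = 0.0142). Without inhibitor it was -0.52 ± 0.27 (adjusted p = 0.291), and the responses with and without triacsin C did not differ past the threshold (difference -0.80 ± 0.35, adjusted p = 0.271). Both of these results are from the model without a term for the replicate number, and both passed the threshold with such a term. The call in etomoxir was lost without etomoxir replicate 3 or etomoxir + SR-3420 replicate 1 or 2 (adjusted p of up to 0.0698), and when the 2 groups compared were fitted alone (adjusted p = 0.109). Since these are bulk samples, fewer fat cells and less Fabp4 RNA per cell cannot be told apart, and the same holds for the genes that follow.

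Fabp5, the epidermal type FABP that fat cells also make, had a similar course at a lower level. Its normalized counts in vehicle were 10412 and 7309, and with SR-3420 they were 10631 and 6197, so these groups overlapped. In triacsin C they were 8803, 10006 and 8010, all above the 4958, 4157 and 3192 of triacsin C + SR-3420. The 9966, 6646 and 6861 of etomoxir were all above the 5756, 2830 and 3907 of etomoxir + SR-3420. Both inhibitor settings thus showed separate groups. The log2FC with SR-3420 was -0.06 ± 0.34 without inhibitor, -1.15 ± 0.28 in triacsin C (edgeR adjusted p = 0.00596) and -0.91 ± 0.28 in etomoxir (adjusted p = 0.0296), with no difference between responses past the threshold. The call in etomoxir was lost without etomoxir replicate 1 or etomoxir + SR-3420 replicate 2 or 3 (adjusted p of up to 0.13) and with these 2 groups fitted alone (adjusted p = 0.0956). Of the stretches of 30 bases in the Fabp5 transcripts, 55.8% also occur elsewhere in the genome, so its count is uncertain where reads of such stretches were assigned.

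Fabp3, the heart type FABP, was the 1 member called higher with SR-3420 alone. Pmp2 had a log2FC of 0.95 ± 0.51 there and was not called (edgeR adjusted p = 0.313). The level of Fabp3 was 0.366 and 0.369 CPM in vehicle and 1.83 and 1.08 CPM with SR-3420. In triacsin C it was 0.86, 0.957 and 0.759 CPM, and in triacsin C + SR-3420 it was 1.22, 1.26 and 1.13 CPM. The groups did not overlap in either comparison, but no sample held more than 31 reads of the gene. The log2FC was 1.96 ± 0.45 without inhibitor (edgeR adjusted p = 0.0179), 0.48 ± 0.34 in triacsin C (adjusted p = 0.282) and 0.98 ± 0.40 in etomoxir (adjusted p = 0.103). The first of these lost its call without vehicle replicate 2, vehicle replicate 3 or SR-3420 replicate 1, with an adjusted p of up to 0.163, and with vehicle and SR-3420 fitted alone (adjusted p = 0.213). Fabp3 is also the member with the largest share of its transcript found elsewhere in the genome, 71.0% of stretches of 30 bases, so its few counts are uncertain.

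The uptake proteins varied more between samples of a group than with SR-3420 alone. Slc27a1, an acyl-CoA synthetase of the plasma membrane that traps fatty acids as they enter, had 7322 and 4509 normalized counts in vehicle and 6998 and 4055 with SR-3420. Its counts were 5861, 7428 and 5437 in triacsin C and 3397, 2949 and 2042 in triacsin C + SR-3420. The 2 groups without inhibitor overlapped, and the triacsin C groups did not. The log2FC in triacsin C was -1.18 ± 0.33 (edgeR adjusted p = 0.0131). The call was lost without triacsin C replicate 2 or triacsin C + SR-3420 replicate 3, with an adjusted p of up to 0.0574. In etomoxir, where the groups overlapped, the log2FC was -0.73 ± 0.33 (edgeR adjusted p = 0.122). That p is from the model without a term for the replicate number, and it passed the threshold with such a term.

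Slc27a4, a second transporter of the same family, had the same sign at a smaller size, with a log2FC of -0.56 ± 0.24 in triacsin C (edgeR adjusted p = 0.0769). Its samples ranged from 927 to 2011 normalized counts over all groups. The triacsin C groups did not overlap, with 1578, 2011 and 1537 counts in triacsin C against 1409, 1187 and 927 in triacsin C + SR-3420. Cd36, the scavenger receptor that binds long-chain fatty acids, had a log2FC of -0.72 ± 0.39 in triacsin C (adjusted p = 0.163) and ranged from 1903 to 7691. Its highest samples in the etomoxir and etomoxir + SR-3420 groups, 7691 and 6155, were both replicate 3, and its groups overlapped in each comparison examined. These p-values are from the model without a term for the replicate number. Slc27a2, the liver and kidney type transporter, had at most 2 counts in any sample and did not pass the filter, so it was not tested; a count of 0 allows up to 3 counts in a library.

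Taking the comparisons in turn, with all 12786 tested genes as background, 9 of the 10 members were tested. For SR-3420 against vehicle, 1 of 9 was called at an adjusted p under 0.05, where 7.54% of all genes were. For triacsin C + SR-3420 against triacsin C, 6 of 9 were called, all lower, where 36.9% of all genes were, and the median log2FC was -1.18 over the 9 and 0.02 over all genes. For etomoxir + SR-3420 against etomoxir, 3 of 9 were called, all lower, where 25.3% of all genes were, with medians of -0.61 and 0.01. These counts hold members that passed the filter through the group where they were high, so nothing is read from them.

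For triacsin C against vehicle, 2 of 9 were called, both higher, where 11.7% of all genes were, and Fabp9, 1 of the 2, was tested only through the triacsin C samples. For etomoxir against vehicle, edgeR called 0 of 9 where 0.0235% of all genes were called, DESeq2 also called 0, and 1 had an unadjusted p under 0.05. With SR-3420 in both groups, edgeR called 0 of 9 for triacsin C + SR-3420 against SR-3420, where 4.58% of genes were called (DESeq2 called 1, Fabp5, and 5 had an unadjusted p under 0.05). Without SR-3420 replicate 3 edgeR called 2 in that comparison, Fabp5 and Fabp9, and without etomoxir + SR-3420 replicate 1 it called 1, Fabp5. For etomoxir + SR-3420 against SR-3420, edgeR and DESeq2 each called 0 of 9 where 0.00782% of genes were called, and 3 members had an unadjusted p under 0.05. All these counts are from models without a term for the replicate number. With such a term, edgeR called 4 of 9 in each comparison with SR-3420 in both groups. It then called 3 of 9 for triacsin C against vehicle and 0 of 9 for etomoxir against vehicle. These comparisons share samples with each other and are given side by side.

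The differences between responses to SR-3420 were called for 1 of 9 members in triacsin C minus no inhibitor (2.51% of all genes), for 2 of 9 in triacsin C minus etomoxir (2.29%) and for 0 of 9 in etomoxir minus no inhibitor (0% of all genes; DESeq2 0, with 1 at an unadjusted p under 0.05). The members called were Pmp2 in the former, and Pmp2 and Fabp9 against etomoxir. For Fabp4, Fabp5 and Slc27a1, the response in triacsin C was lower than without inhibitor by log2 values of -0.80 ± 0.35, -1.09 ± 0.44 and -1.10 ± 0.52, none past the threshold in this model without a term for the replicate number.

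**Figure D4:**
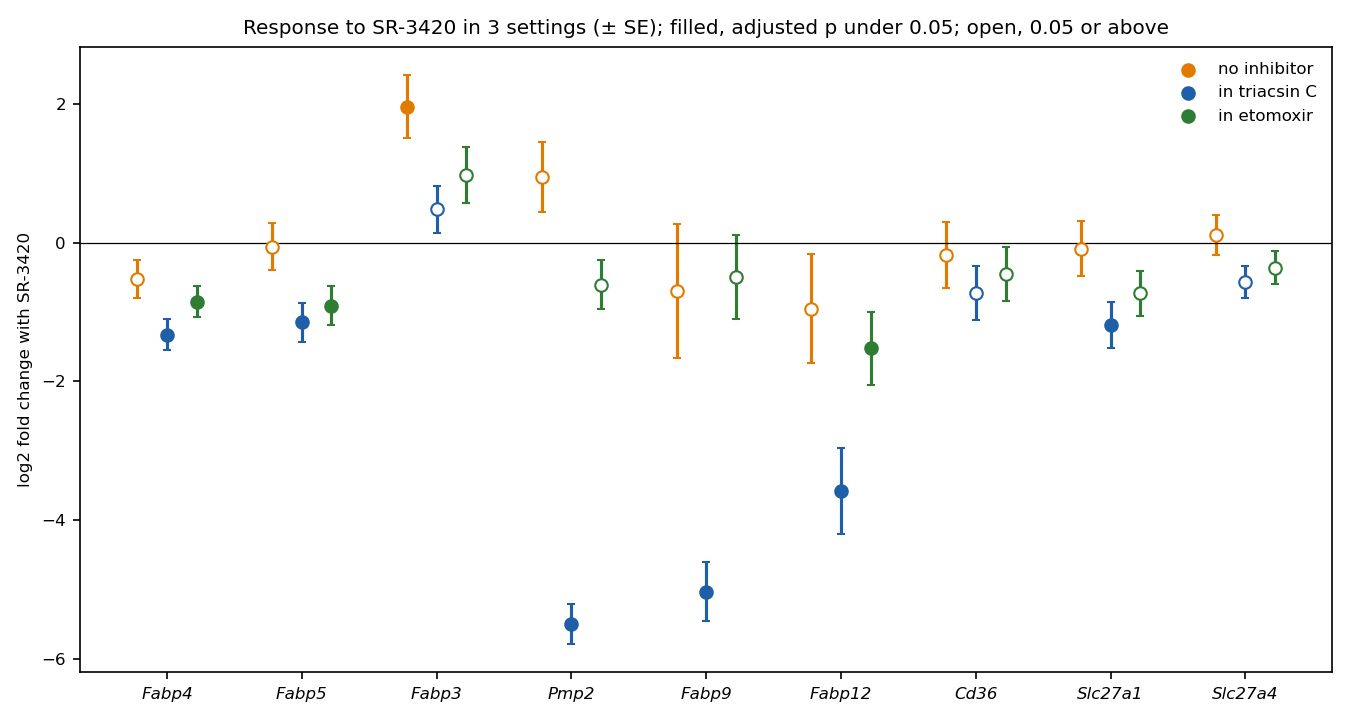
Log2 fold change (± SE) with SR-3420 of the 9 tested genes without inhibitor, in triacsin C and in etomoxir; filled points have an adjusted p under 0.05 and open points do not. Fabp4 and Fabp5 are lower in both inhibitor settings, Fabp3 is higher at 1.96 without inhibitor, and Pmp2 and Fabp9 fall below -5 in triacsin C.

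Adipocyte markers were also called in the SR-3420 comparisons. For SR-3420 against vehicle, 2 of the 8 were lower, with a median log2FC of -0.23, where 7.54% of all genes were called. For triacsin C + SR-3420 against triacsin C, 7 of 8 were lower, with a median of -1.53, where 36.9% of all genes were called, and for etomoxir + SR-3420 against etomoxir, 6 of 8 with a median of -0.99, where 25.3% were. Their summed level had a mean of 26157 CPM in triacsin C and 7556 CPM in triacsin C + SR-3420. The 5 preadipocyte markers summed to 171 CPM and 262 CPM in the same groups. Their part in the results for the members was not tested. The Schwann cell markers, 3 of 5 with a mean count under 10, summed to 5.28 CPM in vehicle and 2.44 CPM in triacsin C. Their part in the counts of Pmp2 was not tested. The male germ cell markers summed to 0.477 and 0.0734 CPM in the same groups, with every list gene under a mean of 10 counts. The macrophage markers summed to 5.64 CPM in vehicle and 17.5 CPM in triacsin C, most of it Cd68 with 4.06 and 15.5 CPM.

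Genes that handle the same fatty acids were taken from lists chosen by function. Among 5 tested of 12 other intracellular lipid binding proteins, 2 fell and 1 rose for SR-3420 in triacsin C, where 36.9% of all genes were called; they are named here after their values were seen. Dbi, the acyl-CoA binding protein, fell in all 3 settings, by 0.66 without inhibitor, 1.43 in triacsin C and 0.95 in etomoxir on the log2 scale. Scp2, which binds sterols and fatty acyl groups, fell by 1.27 and 1.14 in triacsin C and etomoxir, while Crabp2, a retinoic acid binding protein, rose by 0.86 and 1.39. Both went the same way without inhibitor. Scp2 had a mean of 81.4 CPM per kb in vehicle and 50.8 with SR-3420, and Crabp2 had 3.06 and 5.48. Neither was called there in the model without a term for the replicate number. Of the other fatty acid transport proteins, Slc27a3 was the 1 of 3 tested, with a log2FC of -0.41 for SR-3420 in triacsin C that did not pass the threshold in the model without a term for the replicate number.

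Among 17 tested of 20 partners of fatty acid delivery and uptake, 3 were called for SR-3420 alone, each higher, where 7.54% of all genes were called. For SR-3420 in triacsin C, 3 rose and 6 fell, where 36.9% of all genes were called. Angptl4, an inhibitor of lipoprotein lipase, rose in all 3 SR-3420 comparisons (log2FC 2.10 ± 0.14 without inhibitor, 0.87 ± 0.11 in triacsin C and 1.57 ± 0.11 in etomoxir) and was 2.82-fold higher in triacsin C alone. Vldlr, a lipoprotein receptor, was 2.82-fold higher without inhibitor, 2.79-fold higher in triacsin C and higher by a log2FC of 1.26 in etomoxir. Ffar4, a receptor for long-chain fatty acids, rose by 1.65 without inhibitor and fell by 2.34 in triacsin C. Lpl, the lipase that frees fatty acids from lipoproteins, fell by 0.82 in triacsin C and by 0.81 in etomoxir. Without inhibitor it was also lower, at 673 to 712 CPM per kb with SR-3420 against 984 to 1216 in vehicle. That fall was not called in the model without a term for the replicate number. The list's median log2FC for SR-3420 in triacsin C was -0.26, against 0.02 over all genes.

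Of 14 genes whose products hand fatty acids to binding proteins or take them over, all tested, 6 were called lower for SR-3420 in triacsin C, where 36.9% of all genes were called, and 5 in etomoxir, where 25.3% were. With DESeq2's size factors, 6 were lower and 1 higher in triacsin C and 4 were lower in etomoxir. The list medians were -0.34 and -0.40, against 0.02 and 0.01 over all genes. Plin1, the coat protein of lipid droplets, fell by 1.48 in triacsin C. Pparg, the receptor that drives the adipocyte programme, and its partner Rxra were already lower with triacsin C alone, by -1.48 ± 0.19 and -1.55 ± 0.24 on the log2 scale. Pparg also fell by 0.82 with SR-3420 alone and by 0.79 with SR-3420 in etomoxir, and its log2FC with SR-3420 in triacsin C was 0.01 ± 0.17.

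The genes most like each member over the 16 samples were found by Pearson's r of log2 CPM among 10688 genes, as a description. Pmp2 and Fabp9 shared their 2 nearest genes, Serinc4 (r = 0.964 and 0.974) and Dqx1 (0.962 and 0.953), and had an r of 0.972 with each other. Fabp4 was nearest to Prdx3 (0.986), Fabp5 to Cfd (0.982), Cd36 to Arxes2 (0.968), Slc27a1 to Agt (0.994), Slc27a4 to Gtpbp3 (0.989), Fabp12 to Phf7 (0.951) and Fabp3 to Hspb1 (0.908). Slc27a1 and Slc27a4 had an r of 0.964, and Slc27a1 and Fabp5 one of 0.961. The samples share groups and replicate differences, which all enter these values.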

How the data were processed

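According to the study's methods and the submitters' processing notes, the authors aligned reads with STAR 2.4.2a to mm9, used HOMER to keep 1 read for each position and read length, and deposited whole-number counts for 20295 genes, made with iRNA-seq. Whether strand was used is not given in the sources used here.

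From these counts, differences were computed with edgeR 4.0.16 (quasi-likelihood test, TMM, R 4.3.3) in 1 model of 6 group means without covariates, on 12786 genes kept by filterByExpr, with Benjamini-Hochberg adjustment over all of them. The SE is the size of the log2FC divided by the square root of the F statistic. Normalized counts use the size factors of DESeq2 1.42.0. On simulated counts, edgeR's share of false calls stayed below its threshold, while DESeq2 made a larger share than its threshold allows. Replicates are independent experiments per the study's methods, the 14 pairs within groups differed by 4.36 to 160 times counting noise, and p-values measure the spread between these samples, which may in part be technical.

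The members and lists were chosen with earlier results of these data known. Genes named are the members; in each comparison at most 3 list genes a direction with the largest log2FC among those called, with Lpl, Pparg and Angptl4; genes near Fabp4 by position; the genes behind a count of 5 or fewer; and, of the 3 genes most like each member, the nearest. Alternatives were other size factors, filters and tests, a fold threshold, the compared groups alone, a replicate block, and leaving out each sample.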

Additional observations from a re-analysis of the deposited data

Results flagged for a closer look

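The responses to SR-3420 differed between settings for the genes below, each by the edgeR test of the difference itself. No group had enough samples for a search for outlying samples. In triacsin C minus no inhibitor, the difference in log2FC was -6.45 for Pmp2, -3.99 for Ffar4, -1.47 for Ppara, -1.30 for Cpt1b, -1.23 for Angptl4 and 0.91 for Zfp704, with adjusted p-values from 0.000406 to 0.0468. In triacsin C minus etomoxir, it was -4.89 for Pmp2, -4.54 for Fabp9, -2.62 for Ffar4, -0.70 for Angptl4, 1.07 for Pag1 and 0.91 for Zfp704, with adjusted p-values from 0.000297 to 0.0494. Fabp9 passed the count filter only through the 3 triacsin C samples, so it had to differ and its test supports nothing. Ppara and Cpt1b, fatty acid oxidation genes, are named because of this difference, after their values were seen.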

How the results depend on the processing

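All 15 calls of members kept their direction under every alternative in which they could be fitted. With DESeq2's size factors or without the filter on low counts, each comparison's number of members called stayed within 1.5 times. DESeq2's Wald test called 1 member for triacsin C + SR-3420 against SR-3420 and 2 for the difference of triacsin C minus no inhibitor. Asking for 10 counts in every sample removes Pmp2, Fabp9, Fabp12 and Fabp3 by construction and left 0 members called for SR-3420 against vehicle, 3 for triacsin C + SR-3420 against triacsin C, 0 for triacsin C against vehicle, and 0 for the differences of triacsin C minus no inhibitor and minus etomoxir. Fits of the compared groups alone, with fewer samples, called 0 for SR-3420 against vehicle and 0 for etomoxir + SR-3420 against etomoxir. A threshold of 1 on the size of the log2FC left 1 for etomoxir + SR-3420 against etomoxir.

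Leaving out each of the 16 samples in turn gave 0 to 1 members called for SR-3420 against vehicle, 5 to 6 for triacsin C + SR-3420 against triacsin C, 0 to 3 for etomoxir + SR-3420 against etomoxir, 2 to 3 for triacsin C against vehicle, 0 to 2 for triacsin C + SR-3420 against SR-3420, and 1 to 2 for the differences of triacsin C minus no inhibitor and minus etomoxir. Where a group was left with 1 sample, that sample is assumed to vary like the other groups.

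The labels do not say what a replicate number marks, and the study's methods speak of independent experiments. Of 35 pairs of samples with the same number, 27 had a correlation of deviations over 0.1 (mean 0.41, lowest -0.286), against 25 of 71 pairs with different numbers (mean -0.203), and 10 of 16 samples correlated best with their own number. On average deviations went with the number, which the main model leaves out. Whether numbers mark shared experiments was not settled, and the block changes many calls. The replicate block called 2 members for SR-3420 against vehicle, 6 for etomoxir + SR-3420 against etomoxir, 4 for triacsin C + SR-3420 against SR-3420, 4 for etomoxir + SR-3420 against SR-3420, and 3 for the difference of triacsin C minus no inhibitor. DESeq2's Wald test with the block called 5, 5, 3 and 5 in the last 4 of these. The 3 called by edgeR for the difference are Pmp2, Fabp4 (edgeR adjusted p = 0.0291) and Slc27a1 (0.0431), and Fabp4 was also called for SR-3420 against vehicle (0.0493). The block also called Cd36 (0.0018 in triacsin C and 0.0326 in etomoxir) and Slc27a4 (0.00184 and 0.0418) lower with SR-3420, Slc27a1 lower with it in etomoxir (0.0068), and Fabp12 higher for triacsin C against vehicle (0.0128). With SR-3420 in both groups it called Fabp5, Fabp9, Slc27a1 and Slc27a4 for triacsin C, and Fabp3, Fabp5, Slc27a1 and Slc27a4 for etomoxir. In the 4 lists chosen by function, the block also called Scp2 (0.00662), Rxra (0.00838) and Lpl (0.0246) lower and Crabp1 (0.00447) and Ptrf (0.0203) higher for SR-3420 against vehicle, and Slc27a3 lower with SR-3420 in triacsin C (0.0285) and etomoxir (0.0198). Of the 17 partners of delivery and uptake, it called 5 higher and 8 lower with SR-3420 in triacsin C, and in etomoxir 4 higher and 7 lower, from 2 and 2. Of the 14 genes that hand fatty acids over, it called 2 higher and 7 lower in triacsin C and 1 higher and 7 lower in etomoxir. Of all 12786 genes, it called 7185 with SR-3420 in triacsin C, 5776 in etomoxir and 1669 for the difference above. Over all genes, calls for SR-3420 against vehicle went from 964 to 2438 with the block and 1569 with DESeq2, and those for etomoxir + SR-3420 against SR-3420 from 1 to 1838 and 86. For triacsin C + SR-3420 against SR-3420 they went from 585 to 3008 and 1204. The cause of these differences was not tested. Depth limits Fabp3, Fabp9, Fabp12 and, outside triacsin C, Pmp2, whose counts lie close to 0.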

Other observations

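Keeping 1 read for each position and length allows at most 2 counts per base for reads of a single length on 2 strands. Over 2 counts per base were found in some sample for 1084 genes of the table, and Fabp4 reached 190.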
